A study of Mus musculus with 9 samples.

Results

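10 genes of the Wnt pathway were followed by name in a table of 55451 genes: the growth regulator Myc, the feedback genes Axin2, Nkd1, Rnf43 and Znrf3, the transcription factors Lef1, Tcf7 and Tcf7l2, the ligand Wnt5a, and Ctnnb1, which encodes beta-catenin. All 10 were found, 1 row each. RNA sequencing covered HEI-OC1, a conditionally immortalised mouse cell line made from the organ of Corti and labelled as cochlear hair cells. Of its 9 libraries, 3 came from cells transduced with vector alone (EV) and 3 from cells given human wild-type LMX1A (WT), a LIM-homeodomain factor. The other 3 came from cells given LMX1A with the c.915dup frameshift (written c915dup), a duplication at coding position 915. Neither the vector nor the promoter that drove LMX1A is named in the labels, and separate cultures are not stated either, so a p-value here reflects the spread among libraries, which may be technical.

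In the canonical Wnt pathway a secreted ligand binds a Frizzled receptor and an LRP coreceptor, which stops a cytoplasmic complex built on AXIN, APC and GSK3 from marking beta-catenin for destruction. Beta-catenin then enters the nucleus and works with TCF/LEF factors on target genes. Several of those targets feed back on the pathway: AXIN2 rebuilds the destruction complex, NKD1 binds Dishevelled, and the ubiquitin ligases RNF43 and ZNRF3 remove Frizzled from the cell surface. WNT5A mostly acts through branches that do not need beta-catenin, among them planar polarity, which orients hair bundles in the cochlea. In the developing cochlea the canonical pathway is known for promoting division of prosensory cells and for its part in hair cell formation.

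Promoter sequences, from 250 bases before to 50 bases after a transcription start, were taken from RefSeq (GRCm38.p6). They were found for 7 of the 10 members, 14 promoters in all, and Myc, Wnt5a and Znrf3 had no entry. Short motifs were searched on both strands: CTTTGA, the core that TCF/LEF factors bind, CACGTG, the E-box that MYC binds with MAX, and TAATTA, a homeodomain core. CTTTGA was in 1 of the 14 member promoters and in 16.0% of all 32851 promoters in the table. CACGTG was in 1 of the 14 and in 7.15% of all, and TAATTA was in 0 of the 14 and in 5.29% of all. GC content ran from 42.0% to 76.3% over the 14, beside a median of 52.7% over all promoters, and the shares were not matched for it. Some windows of Lef1 and of Ctnnb1 overlap each other, so the 14 are not all separate sequences. All motif matches among the members lay in the same promoter, at a start inside the Lef1 gene. CTTTGA was on the reverse strand 180 and 120 bases before that start, and CACGTG 79 bases before it. That promoter is printed with the matches in capitals (TCAAAG is CTTTGA on the reverse strand). Beside it are those of Axin2, the feedback gene most used as a readout of the pathway, and of Ctnnb1 (the first of its 2 starts). None of these motifs occurred in the printed promoters of Axin2 and Ctnnb1. A match is a run of letters and not evidence of binding, and sites outside these windows were not searched.
Lef1, internal start, chr3:131156044-131156343, plus strand: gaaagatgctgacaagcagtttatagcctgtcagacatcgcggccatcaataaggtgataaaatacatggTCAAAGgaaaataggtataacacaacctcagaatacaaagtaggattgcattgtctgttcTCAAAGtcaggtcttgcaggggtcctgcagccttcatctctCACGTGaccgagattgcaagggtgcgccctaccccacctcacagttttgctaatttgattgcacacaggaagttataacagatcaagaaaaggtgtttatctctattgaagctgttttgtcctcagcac
Axin2, chr11:108920099-108920398, plus strand: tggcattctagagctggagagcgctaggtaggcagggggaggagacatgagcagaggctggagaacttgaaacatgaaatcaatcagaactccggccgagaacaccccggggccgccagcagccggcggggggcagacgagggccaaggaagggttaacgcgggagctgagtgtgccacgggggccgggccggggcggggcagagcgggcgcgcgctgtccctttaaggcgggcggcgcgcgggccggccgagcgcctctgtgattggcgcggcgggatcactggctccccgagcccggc
Ctnnb1, chr9:120933150-120933449, plus strand: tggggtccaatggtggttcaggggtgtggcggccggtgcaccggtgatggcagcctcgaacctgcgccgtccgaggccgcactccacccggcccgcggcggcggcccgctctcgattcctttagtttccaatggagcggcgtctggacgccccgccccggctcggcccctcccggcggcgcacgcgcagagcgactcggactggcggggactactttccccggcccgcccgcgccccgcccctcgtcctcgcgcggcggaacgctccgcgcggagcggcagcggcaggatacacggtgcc

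Values are FPKM, which scales fragments by transcript length (per kilobase) and by depth (per 1000000 fragments), so levels can be set side by side between genes. Estimated depth ran from 13.1 to 16.0 times 1000000 fragments. LMX1A was listed at 0 in all 3 EV libraries and stood at 131 to 133 FPKM in WT and 149 to 170 FPKM in c915dup. Every c915dup library was above every WT library, so the form of LMX1A and its level cannot be told apart between these groups. The 3 libraries numbered 1, which fall 1 to each group, stood apart from the other 6 with 4.36% to 5.49% of FPKM from mitochondrial genes against 1.69% to 2.17%. They differed more in the gene Gm23935, with 42.4 to 136 FPKM against 3684 to 6943 FPKM. Results that turn on this split are therefore also given with a block for it or without those libraries. The labelled cell type was not borne out by its markers: 0 of 10 hair cell genes reached a mean of 1 FPKM and 5 of them, Pou4f3, Atoh1, Otof, Slc26a5 and Ocm, were listed at 0 in every library. All 8 mesenchymal genes reached 1 FPKM, and their summed level was 1909 to 2056 FPKM in EV, 1902 to 2102 in WT and 1922 to 1997 in c915dup. Supporting cell markers summed to between 4.42 and 5.34 FPKM over the 9 libraries. All of it was Lfng (mean 3.30 FPKM) and Fgfr3 (mean 1.52 FPKM), with Sox2, Prox1, Gjb2 and Hes5 listed at 0. Immune markers summed to 2.07 to 4.18 FPKM, nearly all of it Cd68 (mean 2.91 FPKM), and melanocyte markers to 2.50 to 3.18 FPKM, nearly all of it Mitf (mean 2.64 FPKM). Endothelial and Schwann cell markers had no member with a mean of 1 FPKM.

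Levels of the members spanned more than 4 orders of magnitude. Ctnnb1 was highest, with a mean of 190.4 FPKM over the 9 libraries, above 97.8% of the genes with a mean of at least 1 FPKM. Wnt5a (33.0 FPKM) and Myc (31.6 FPKM) came next with overlapping ranges. Tcf7 (7.0 FPKM) and Tcf7l2 (5.71 FPKM) also overlapped, and below them lay Znrf3 (3.54 FPKM) and Lef1 (1.27 FPKM). Rnf43, Axin2 and Nkd1 were under 1 FPKM in every library, with means of 0.577, 0.149 and 0.00223 FPKM. No other neighbours in this order shared any part of their ranges. The gene of the pathway's central protein was thus among the most abundant transcripts, while 3 of its 4 feedback genes stayed under 1 FPKM.

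**Figure D1:**
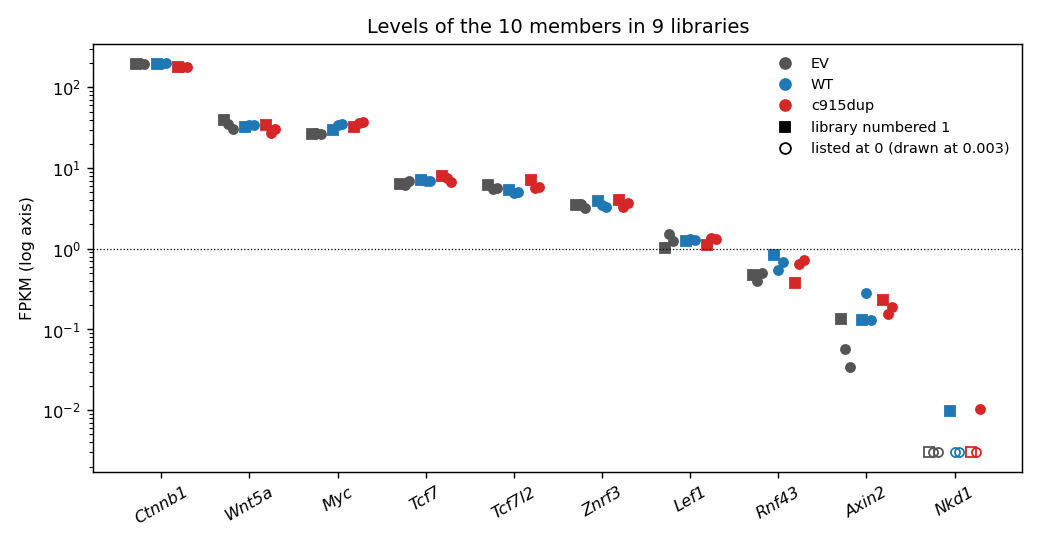
FPKM of the 10 members on a log axis in 9 libraries, ordered by mean; grey, blue and red points are EV, WT and c915dup, squares are libraries numbered 1, and open points are libraries listed at 0, drawn at 0.003. Ctnnb1 sits near 190.4 FPKM, Wnt5a and Myc near 30, and Rnf43, Axin2 and Nkd1 below the dotted line at 1 FPKM in all 9 libraries.

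Myc (ENSMUSG00000022346, GRCm38 chromosome 15, 61985391 to 61990374, plus strand), which drives genes of cell growth, was higher in every library with LMX1A than in any with the empty vector. The EV libraries numbered 1, 2 and 3 had 26.6, 27.0 and 26.4 FPKM. The WT libraries had 29.8, 34.6 and 35.1 FPKM, and the c915dup libraries, numbered 1, 3 and 4, had 32.4, 35.9 and 36.9 FPKM. The EV values lay within 1 FPKM of each other, and in both other groups the library numbered 1 was the lowest. From EV to c915dup Myc rose by 1.32 times, from 26.7 ± 0.30 to 35.1 ± 2.40 FPKM (mean ± SD, n = 3). The log2 difference, on the log2(FPKM + 1) scale used for all tests, was 0.38 ± 0.07 (SE, limma adjusted p = 0.0467). In bulk RNA, more cells with the transcript and more transcript per cell cannot be told apart.

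That call was narrow. It held in 2 of the 9 fits that left out 1 library, where the adjusted p ran from 0.0244 to 0.192 and the log2 difference from 0.34 to 0.44. These 2 left out WT replicate 1 or c915dup replicate 1. A left-out WT library changes only the shared spread and the adjustment, not this log2 difference. The call ended without any of the 3 EV libraries, WT replicate 2 or 3, or c915dup replicate 3 or 4. It also ended with no filter on low values, with 3 other scalings, in a fit of those groups alone and with a plain variance model (adjusted p 0.0649 to 0.163). None of these fits held a block for library number. With the block for libraries numbered 1 the adjusted p was 0.00126, and without those 3 libraries the log2 difference was 0.44 with an adjusted p of 0.00196.

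Between WT and EV, Myc stood at 33.2 ± 2.95 and 26.7 ± 0.30 FPKM (log2 difference 0.30 ± 0.07 SE, 95% interval 0.14 to 0.47) and did not pass (limma adjusted p = 0.272). With the block for libraries numbered 1 it passed (adjusted p = 0.013), and without those libraries the log2 difference was 0.38 (adjusted p = 0.00767). In the 6 EV and WT libraries alone, with each of the numbers 1, 2 and 3 as a block, the adjusted p was 0.0723. The ratio of WT to EV was 1.12 in the libraries numbered 1 and 1.31 in the others, and that of c915dup to EV was 1.22 and 1.37. The 2 forms of LMX1A overlapped in Myc: c915dup minus WT came to 0.08 in log2, with an interval from -0.09 to 0.25 (adjusted p = 0.80).

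**Figure D2:**
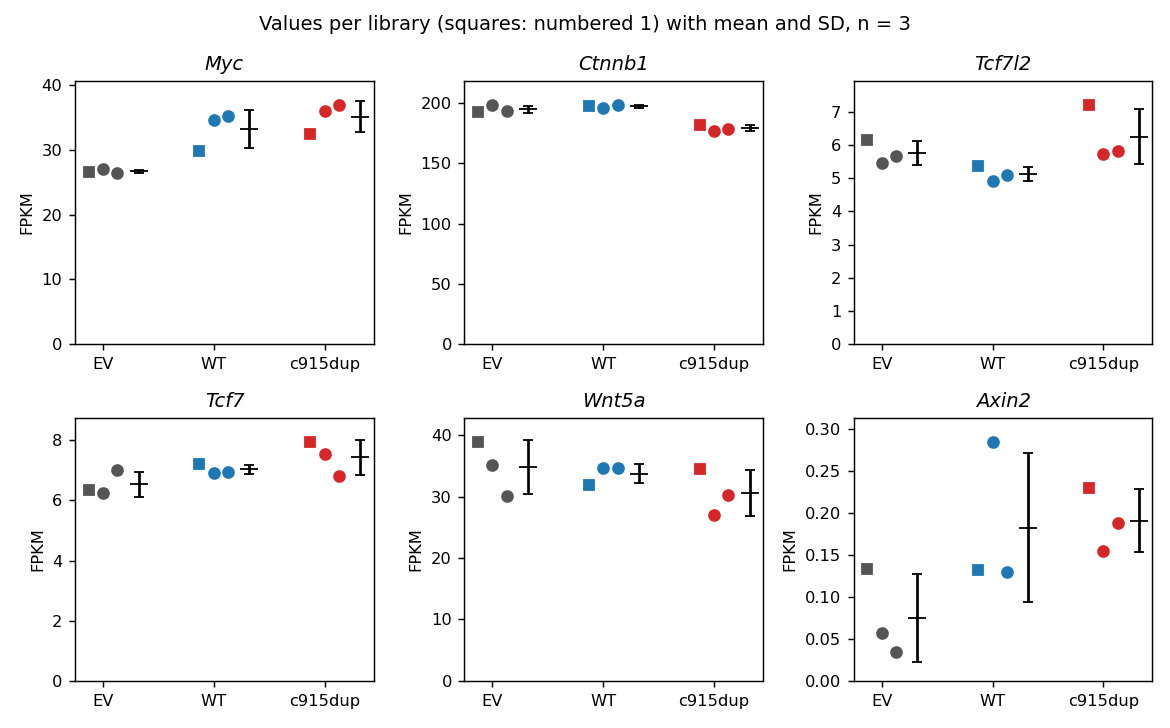
FPKM of 6 members by group, 1 point per library with squares for libraries numbered 1, and the mean with its SD (n = 3) beside them; every axis starts at 0. Myc is lowest in the 3 EV libraries (26.4 to 27.0 FPKM), Ctnnb1 is lowest in the 3 c915dup libraries (177 to 182 FPKM), and the Axin2 values all lie under 0.3 FPKM.

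Ctnnb1 (ENSMUSG00000006932, chromosome 9, 120929216 to 120960507, plus strand) was the one member whose c915dup libraries lay apart from both other groups, below them. It had 193, 198 and 194 FPKM in EV, 198, 196 and 198 in WT, and 182, 177 and 179 in c915dup. The spread within a group was at most 2.90 FPKM (SD), and EV and WT overlapped. The mean of c915dup was 0.92 times that of EV and 0.91 times that of WT. Neither difference passed: log2 -0.12 ± 0.04 against EV (SE, interval -0.21 to -0.03, limma adjusted p = 0.268) and -0.14 ± 0.04 against WT (interval -0.23 to -0.05, adjusted p = 0.247).

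With the block for libraries numbered 1 both passed (adjusted p = 0.034 and 0.0244). Without those libraries the adjusted p was 0.0519 against EV and 0.049 against WT. The ratio of c915dup to EV was 0.94 in the libraries numbered 1 and 0.91 in the others. Between WT and EV the log2 difference was 0.02, with an interval from -0.07 to 0.11. Ctnnb1 overlaps Ulk4 on the opposite strand, which had a mean of 4.55 FPKM. Use of strand in the counting is not stated in these sources, so a small part of these reads could belong to the neighbour. Transcript level is also not the pathway's usual control point, since beta-catenin is regulated mainly as a protein.

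The transcription factors that pair with beta-catenin showed no difference that passed. Tcf7l2 (ENSMUSG00000024985, chromosome 19, 55741820 to 55933654, plus strand), a TCF factor expressed widely outside lymphocytes, had 6.14, 5.44 and 5.65 FPKM in EV, 5.36, 4.92 and 5.10 in WT, and 7.20, 5.74 and 5.82 in c915dup. Every WT library was below every EV and every c915dup library, and the library numbered 1 was the highest of each group. The log2 difference was 0.24 ± 0.09 (SE) between c915dup and WT (interval 0.04 to 0.44, limma adjusted p = 0.375, 0.0602 with the block). It was -0.14 between WT and EV (interval -0.34 to 0.06, adjusted p = 0.932). Tcf7l2 has 22 transcripts in the GENCODE M21 annotation, and a value per gene does not show which of them were present.

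Tcf7 (ENSMUSG00000000782, chromosome 11, 52252371 to 52283014, minus strand), best known from T cells, had 6.35, 6.23 and 7.01 FPKM in EV, 7.22, 6.92 and 6.96 in WT, and 7.96, 7.56 and 6.81 in c915dup. The 3 groups overlapped. Its log2 difference between c915dup and EV was 0.16 ± 0.07 (SE, interval 0.00 to 0.33, limma adjusted p = 0.425), and 0.10 without the libraries numbered 1. Lef1 (ENSMUSG00000027985, chromosome 3, 131110471 to 131224356, plus strand), both a partner of beta-catenin and one of its targets, stood at 1.01, 1.52 and 1.26 FPKM in EV, 1.25, 1.32 and 1.27 in WT, and 1.11, 1.35 and 1.30 in c915dup. The group means lay within 0.03 FPKM of each other, and the widest range was that of EV. Its log2 differences were 0.01, 0.00 and -0.02 for WT against EV, c915dup against EV and c915dup against WT, each with a 95% interval within 0.3 of 0.

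Among the feedback genes only Znrf3 (ENSMUSG00000041961, chromosome 11, 5276324 to 5444847, minus strand) was abundant enough to be tested. Its values were 3.51, 3.56 and 3.19 FPKM in EV, 3.88, 3.51 and 3.27 in WT, and 3.98, 3.27 and 3.72 in c915dup. The groups overlapped throughout, and the log2 differences were 0.04, 0.07 and 0.03 for WT against EV, c915dup against EV and c915dup against WT. The 95% intervals were -0.15 to 0.24, -0.12 to 0.27 and -0.17 to 0.23 in that order.

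Rnf43 (ENSMUSG00000034177, chromosome 11, 87662722 to 87735539, plus strand), the other Frizzled-removing ligase, had 0.478, 0.394 and 0.495 FPKM in EV, 0.843, 0.539 and 0.683 in WT, and 0.382, 0.655 and 0.720 in c915dup. Every WT library was above every EV library, by 1.51 times in the means, whereas c915dup overlapped both groups. An exact two-sided permutation test of the means gave p = 0.10 for WT against EV (n = 3), the smallest p that 3 libraries against 3 allow. With no filter on low values, limma gave a log2 difference of 0.21 ± 0.11 (SE, adjusted p = 0.923). Its FPKM corresponded to about 22.3 to 56 fragments per library, estimated from the longest annotated transcript and the estimated depth.

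Axin2 (ENSMUSG00000000142, chromosome 11, 108920349 to 108950783, plus strand) was present at trace level. It had 0.134, 0.0574 and 0.034 FPKM in EV, 0.133, 0.285 and 0.130 in WT, and 0.230, 0.154 and 0.188 in c915dup. Every c915dup library was above every EV library, while EV replicate 1 overlapped WT. The means stood in a ratio of 2.54 for c915dup to EV and 2.43 for WT to EV, but they rest on about 36, 34 and 13 fragments summed over the libraries of c915dup, WT and EV. The exact two-sided permutation p was 0.10 for c915dup against EV and 0.30 for WT against EV (n = 3), with 0.10 the smallest possible. In the libraries numbered 1 the ratio of WT to EV was 0.99, and in the others it was 4.54, while that of c915dup to EV was 1.72 and 3.75. On the log2(FPKM + 1) scale with no filter the difference of c915dup from EV was 0.15 ± 0.07 (SE, limma adjusted p = 0.706). That scale compresses ratios at so low a level. Nkd1 (ENSMUSG00000031661, chromosome 8, 88521354 to 88594884, plus strand) was listed at 0 in 7 of 9 libraries and at 0.00979 and 0.0102 FPKM in WT replicate 1 and c915dup replicate 4. These values came to 0.6 and 0.7 estimated fragments, so no comparison could be made.

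Wnt5a (ENSMUSG00000021994, chromosome 14, 28504750 to 28527448, plus strand) was the Wnt ligand with by far the most transcript in these cells. It had 39.0, 35.2 and 30.1 FPKM in EV, 31.9, 34.6 and 34.7 in WT, and 34.5, 26.9 and 30.3 in c915dup. The groups overlapped, and the EV libraries alone spread over more than the whole range of WT. The log2 difference between c915dup and EV was -0.18 ± 0.11 (SE, interval -0.42 to 0.06, limma adjusted p = 0.583). Between WT and EV it was -0.04 (interval -0.27 to 0.20), and it turned to 0.09 without the libraries numbered 1. The antisense gene Gm2670, which overlaps Wnt5a, had a mean of 0.511 FPKM. Of the 18 other Wnt ligands, Wnt6 alone reached a mean of 1 FPKM (1.25 FPKM), Wnt10b came next with 0.521 FPKM, and 5 (Wnt3, Wnt3a, Wnt7a, Wnt9b and Wnt16) were listed at 0 in every library.

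Counted together, 7 of the 10 members passed the filter on low values and were tested with 11933 genes in all. Between c915dup and EV, 1 of the 7 (Myc) passed, where 1.09% of all genes tested did. With the block 2 of the 7 passed (Myc higher, Ctnnb1 lower), against 5.54% of all genes, and without the libraries numbered 1 Myc alone did, against 3.38%. Between WT and EV, 0 of 7 passed with limma, against 0.352% of all genes, while 1 had an unadjusted p under 0.05, against 6.13%. With the block, and also without the libraries numbered 1, 1 of the 7 passed (Myc), against 1.22% and 0.696% of all genes. Between c915dup and WT, 0 of 7 passed with limma, against 0.226%, while 2 had an unadjusted p under 0.05, against 10.4%. With the block, and also without the libraries numbered 1, 1 of the 7 passed (Ctnnb1), against 4.81% and 2.92%. With 7 members, 1 gene moves a share widely.

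An unadjusted p under 0.05 between c915dup and EV was seen in 3 of the 7, against 11.4% of all genes. Libraries of the 2 groups did not overlap in 2 of the 7 members in each comparison. The same held for 12.9% of all genes between WT and EV, 16.9% between c915dup and EV and 16.1% between c915dup and WT. The median log2 difference of the 7 was 0.017, 0.074 and 0.031 in that order, beside -0.005, 0.00 and 0.002 over all genes. The comparisons share their control libraries, so their values are not independent of each other.

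**Figure D3:**
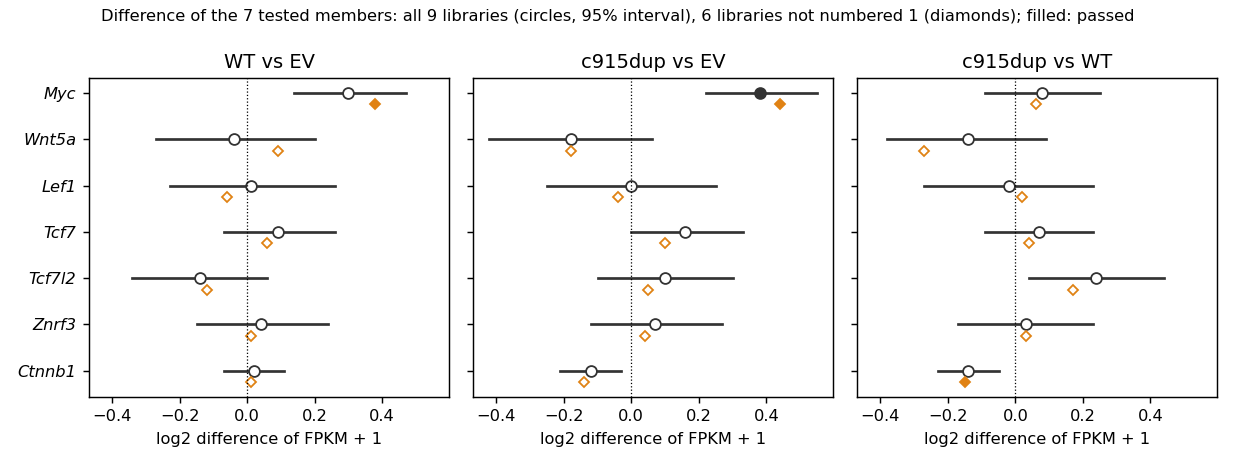
Log2 difference of FPKM + 1 for the 7 tested members in the 3 comparisons; circles with lines are estimates from 9 libraries with 95% intervals, diamonds are estimates from the 6 libraries not numbered 1, and filled symbols passed. Myc at 0.38 between c915dup and EV is the only filled circle, and filled diamonds are Myc in both comparisons with EV and Ctnnb1 between c915dup and WT.

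The rest of the pathway was examined through 11 lists of 141 genes, of which 91 were tested. None passed with limma in WT against EV, c915dup against EV or c915dup against WT. Of all genes tested, 0.352%, 1.09% and 0.226% passed in that order. An unadjusted limma p under 0.05 was seen in 6, 12 and 10 of 91, against 6.13%, 11.4% and 10.4% of all genes. With the block 1, 4 and 3 passed, or 1 of 91 where 1.22% of all genes passed, 4 of 91 where 5.54% did and 3 of 91 where 4.81% did. The median over the 91 was 0.009, -0.012 and -0.033. Those that passed with the block are named here, and the 2 highest of each list are given as levels.

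At the cell surface, 11 of 16 receptors and coreceptors were tested, led by Ryk, a WNT5A-binding receptor of the kinase family (65.8 FPKM), and the coreceptor Lrp6 (23.3 FPKM). None passed, with or without the block. Log2 differences were below 0 in 4 of the 11 between WT and EV (median 0.02), 9 between c915dup and EV (median -0.069) and 10 between c915dup and WT (median -0.08). Over all 11933 genes tested, 6231, 5979 and 5899 were below 0 in these comparisons, and over the 91 list genes 42, 48 and 59. Among the R-spondins, which shield Frizzled from RNF43 and ZNRF3, and their LGR receptors, 3 of 7 were tested, led by Lgr4 (9.12 FPKM) and Rspo3 (2.61 FPKM), and none passed. The cargo receptor Wls, which carries Wnt proteins to the surface, had 184 FPKM, and the acyltransferase Porcn 2.99 FPKM. Porcn stood at 3.51, 3.26 and 3.06 FPKM in EV, 2.29, 2.67 and 2.69 in WT, and 3.27, 3.12 and 3.03 in c915dup. Every WT library was the lower, yet the log2 difference of -0.27 between WT and EV did not pass (limma adjusted p = 0.511, 0.182 with the block).

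Of the secreted and surface inhibitors 5 of 16 were tested, with log2 differences below 0 in 4 between WT and EV (median -0.057), 4 between c915dup and EV (median -0.132) and 5 between c915dup and WT (median -0.177), beside medians of -0.005, 0.00 and 0.002 over all genes. The most abundant was Sfrp2, a secreted Frizzled-related protein that binds Wnt ligands. It had 17.8, 19.7 and 19.2 FPKM in EV, 14.6, 19.3 and 16.7 in WT, and 12.1, 15.9 and 13.3 in c915dup. All c915dup values lay below all EV values, and the log2 difference was -0.44 ± 0.11 (SE, interval -0.69 to -0.18, limma adjusted p = 0.146). It passed with the block (0.00618), and without the libraries numbered 1 the log2 difference was -0.40 (adjusted p = 0.063). Kremen1, a DKK receptor, had 13.5 FPKM over all libraries and did not pass, and Dkk1 was listed at 0 throughout. Apcdd1 was the tested inhibitor with differences above 0 from EV. It had 1.581, 1.529 and 1.574 FPKM in EV, 2.480, 2.005 and 2.011 in WT, and 1.677, 1.593 and 1.485 in c915dup. Every WT library was above all others, yet the log2 difference of 0.30 between WT and EV did not pass (limma adjusted p = 0.531, 0.173 with the block).

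Inside the cell, 15 of 16 destruction complex and transducer genes were tested, led by the kinase Csnk1a1 (83.5 FPKM) and the tankyrase Tnks2 (49.3 FPKM). Dvl1, a Dishevelled protein that relays the receptor signal, had 22.4, 19.0 and 19.7 FPKM in EV, 23.8, 21.9 and 20.8 in WT, and 24.8, 25.3 and 24.9 in c915dup. The c915dup libraries lay within 1 FPKM of each other and above all others. The log2 difference from EV was 0.29 ± 0.07 (SE, limma adjusted p = 0.127). It passed with the block and without the libraries numbered 1, each time with an adjusted p of 0.00998.

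In the nucleus, 13 of 15 cofactors were tested, with the short Groucho relative Tle5 (listed under its older symbol Aes) at 106 FPKM and the PHD-finger coactivator Pygo2 at 35.7 FPKM. The Groucho corepressor Tle1 had 6.96, 7.84 and 7.63 FPKM in EV, 8.68, 9.32 and 9.67 in WT, and 8.62, 8.86 and 9.09 in c915dup. It was higher in every library with either form of LMX1A. Its log2 differences from EV were 0.27 and 0.22 (limma adjusted p = 0.269 and 0.216, 0.0318 and 0.0352 with the block). With each of the numbers 1, 2 and 3 as a block in the 6 EV and WT libraries, Tle1 did not pass (adjusted p = 0.115), nor did any other list gene. Tle2, another corepressor of that family, had 6.49, 5.45 and 6.09 FPKM in WT and 7.58, 8.16 and 8.81 in c915dup. These groups lay apart, with a log2 difference of 0.39 ± 0.08 (SE, adjusted p = 0.114), which passed with the block (0.021) and without the libraries numbered 1 (0.0243). Pygo2 stood at 33.5 ± 1.40 FPKM in WT and 38.6 ± 0.47 in c915dup (mean ± SD, n = 3; log2 difference 0.20, adjusted p = 0.182, 0.0209 with the block).

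Of 10 further targets 5 were tested, led by the adhesion receptor Cd44 (45.2 FPKM) and cyclin D1, Ccnd1 (40.4 FPKM), and none passed with or without the block. Ccnd1 had 42.3 ± 3.78 FPKM in EV, 39.9 ± 1.30 in WT and 39.0 ± 2.37 in c915dup. The other tested targets, Ephb3, Tbx3 and Tnfrsf19, had means of 8.07, 3.12 and 1.695 FPKM. Sp5 and Nkd2 of the same list, and Lgr5 of the LGR receptors, targets often used as readouts, had means of 0.0502, 0.0399 and 0.00652 FPKM. Of the planar polarity genes 8 of 11 were tested, led by Scrib (25.4 FPKM) and Invs (7.29 FPKM), and none passed with or without the block.

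**Figure D4:**
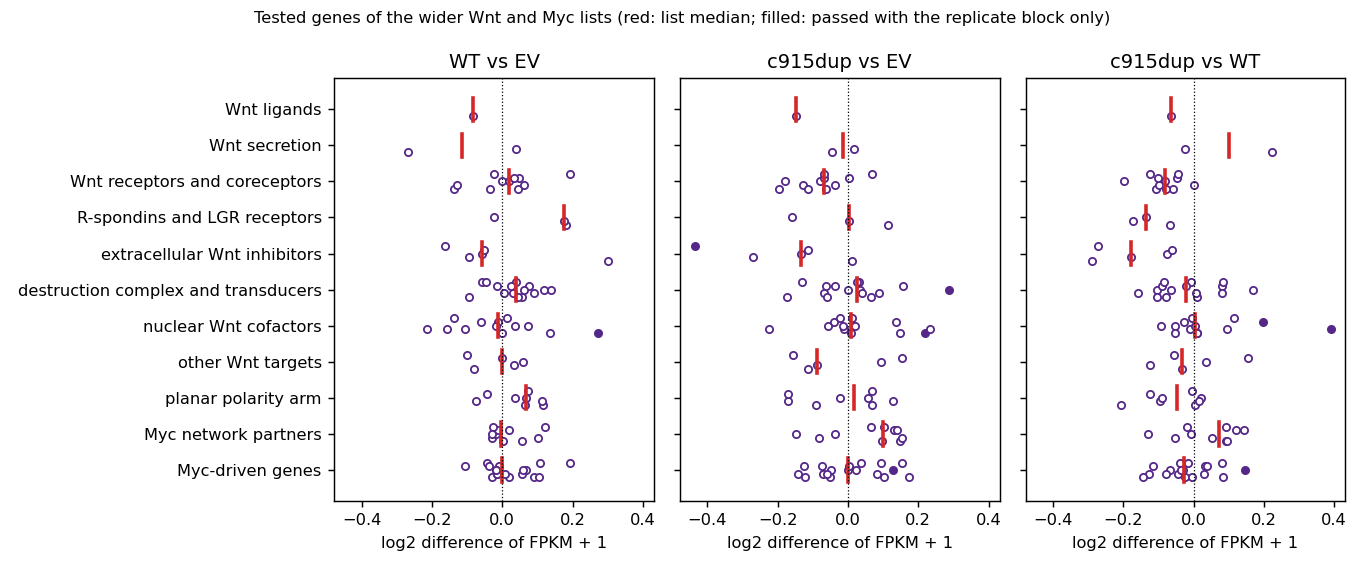
Log2 difference of FPKM + 1 of each tested gene in the 11 wider lists (circles) with the list median (red bar), in the 3 comparisons; filled circles passed with the replicate block, and none passed without it. Apart from Sfrp2 at -0.44 between c915dup and EV and Tle2 at 0.39 between c915dup and WT, the differences lie between -0.29 and 0.30.

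The genes listed around Myc are its relatives, its partners and the growth genes it drives. Its relatives Mycn and Mycl had means of 0.0511 and 0.88 FPKM, so Myc was by far the most abundant of the 3. Of 12 network partners 10 were tested, led by its dimer partner Max (23.8 FPKM) and the antagonist Mxd4 (22.5 FPKM), and none passed with or without the block. All 18 genes on a list of MYC-driven growth genes were tested, led by nucleophosmin Npm1 (499 FPKM) and the mitochondrial chaperone Hspd1 (243 FPKM). Between c915dup and EV, where Myc rose, 9 of the 18 differences were above 0 and 9 below, with a median of 0.001 beside 0.00 over all genes. Odc1, the ornithine decarboxylase that starts polyamine synthesis, had 83.3, 87.6 and 85.8 FPKM in EV, 84.6, 84.3 and 84.6 in WT, and 93.5, 93.4 and 94.0 in c915dup. The c915dup libraries lay above all others, and Odc1 was the one gene of the list to pass with the block, against EV (log2 difference 0.13, limma adjusted p = 0.0386, 0.25 without the block) and against WT (0.15, 0.0275 with and 0.234 without). That is 1 of 18, where 5.54% and 4.81% of all genes tested passed with the block in these comparisons. Libraries did not overlap in 16.9% and 16.1% of all genes. Without the libraries numbered 1, neither difference of Odc1 passed, nor did those of Sfrp2, Tle1 and Pygo2, whereas Hspd1 passed as lower in c915dup than in WT (-0.20, adjusted p = 0.0383).

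Across the 9 libraries the tested genes whose log2 values were most like those of Myc were Ier2 (Pearson r = 0.971), Gadd45g (0.951), Mcl1 (0.946), Zfp36l2 (0.944) and Wdr62 (0.942). Ier2, an immediate early gene, had means of 66.1, 109 and 136 FPKM in EV, WT and c915dup, and the survival gene Mcl1 had 67.2, 77.9 and 85.6 FPKM. For Axin2 they were Ift140 (0.951), Bcar3 (0.933), Ing3 (0.911), Tbx18 (0.906) and Mir1898 (0.898), but with so few Axin2 fragments this order is uncertain. These are descriptions over 9 libraries that share group and library number, picked as the highest of 11933. Among the 7 tested members the correlations ran from -0.59 (Tcf7l2 with Ctnnb1) to 0.57 (Wnt5a with Ctnnb1).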

How the data were processed

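The deposited table holds FPKM per gene, made by the authors; the unit is inferred, since the headers give none, from totals that differ between libraries (339489 to 358766). Per the submitters' processing notes, CASAVA 1.8, Trimmomatic, FastQC, HISAT2, RSEM and edgeR were used on GRCm38, with no role given, while the series' design text names other aligners. A second deposited table held the same FPKM in 148608 of 148608 values and was not used, nor was a table of correlations. EV and WT columns carry the numbers of their titles. The c915dup columns, numbered 1, 3 and 4, were tied to their group only and keep those numbers as names. Within a group, at most 0.013% of genes had identical values in a pair of libraries, and all 9 were counted as separate.

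The 11933 genes that reached 1 FPKM in 3 or more libraries were tested on log2(FPKM + 1) in 1 limma fit of 3 group means (limma 3.58.1, R 4.3.3, eBayes with trend and robust), two-sided, with Benjamini-Hochberg adjustment over all of them and a threshold of 0.05. The fit was tested on simulated data with independent libraries. The simulation held no effect of library number, so it does not cover that split. Permutation tests used scipy 1.17.1, tables pandas 2.3.3 and figures matplotlib 3.10.9. Depth was taken from the modal step of FPKM times length in genes with 1 transcript of over 2000 bases, and entered no test. Deviations from the group means correlated at 0.62, 0.39 and 0.26 between EV and WT libraries numbered 1, 2 and 3, and at 0.64 and 0.66 between c915dup replicate 1 and the other libraries numbered 1. EV replicate 3 correlated at 0.30 with WT replicate 2, and EV replicate 2 at 0.27 with WT replicate 3, so the numbers 2 and 3 were not told apart. The pairing therefore rests on libraries numbered 1, and the blocked value is given where it changes a call. The block separates libraries numbered 1 from the others. The alternatives were other pseudocounts, filters, scalings, variance models and sets of libraries, each fitted without the block. The members, lists and rule for named genes (every member, every list gene that passed, the 2 highest of each list, and the 5 genes most like Myc and Axin2) were chosen with earlier results of these data known. List genes that passed only with the block, and other list genes with values, were named after their values were seen.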

Additional observations from a re-analysis of the deposited data

How the results depend on the processing

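The number of genes called in WT against EV, c915dup against EV and c915dup against WT was 42, 130 and 27. It was 24, 66 and 10 with no filter on low values, 27, 63 and 14 in fits of only the groups compared, and 145, 661 and 574 with the replicate block. With the numbers 1, 2 and 3 as the block, WT against EV gave 89. Without the 3 libraries numbered 1, chosen after seeing the data, the counts were 83, 403 and 349. In c915dup against WT the count was 54 with quantile normalization, 73 with median-ratio scaling and 42 when rescaled without mitochondrial and small RNA genes, where 44, 60 and 33 were higher, against 26 of 27. Leaving out 1 library gave 19 to 40, 61 to 111 and 8 to 36.

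The members called were 0, 1 and 0, became 1, 2 and 1 with the block, and were 1, 1 and 1 without the libraries numbered 1. The 1 member called in c915dup against EV, Myc, became 0 with no filter on low values, in the fit of only those groups, with quantile, median-ratio or rescaled values, and without trend and robust (adjusted p 0.163, 0.0696, 0.0691, 0.0787, 0.0649 and 0.0784, with log2 differences of 0.37 to 0.38). Leaving out 1 library gave 0 to 1 there, and 0 in the other comparisons. The wider list genes called, 0 throughout, became 1, 4 and 3 with the block. Without the libraries numbered 1 they were 0, 1 (Dvl1) and 2 (Tle2, and Hspd1 at -0.20), and 0 in each fit that left out 1 library.

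Of 427 results for single members under these alternatives, 396 kept direction and side of the threshold, 13 lost a call, 5 gained one and 13 changed sign, none of them a call. All lost calls were of Myc between c915dup and EV, the only call of the main fit. Many alternatives could not change a direction: filters, variance models, blocks, fits of 2 groups and a left-out library of the third group keep the log2 difference. The count of 396 is therefore no measure of stability. Over fits that left out 1 library, Wnt5a between WT and EV ranged from -0.132 to 0.048 and Lef1 from -0.067 to 0.095, while Lef1 ranged from -0.085 to 0.078 between c915dup and EV and from -0.049 to 0.031 between c915dup and WT. Znrf3 ranged from -0.008 to 0.088 between WT and EV and from -0.018 to 0.092 between c915dup and WT.

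For Wnt5a between WT and EV the sign turned with EV replicate 1 (0.048) or WT replicate 1 (0.003) left out, and at 0.087 when all libraries numbered 1 were. Lef1 turned to -0.067 and -0.059 between WT and EV, without EV replicate 1 and without the libraries numbered 1. Between c915dup and EV it turned to 0.001 with a pseudocount of 0.1, 0.078 without EV replicate 2 and 0.046 without c915dup replicate 1. Between c915dup and WT it turned to 0.031 without that library and 0.023 without the libraries numbered 1. Znrf3 turned to -0.008 between WT and EV without WT replicate 1, and to -0.014 and -0.018 between c915dup and WT without WT replicate 3 or c915dup replicate 1. The cause was not tested. Depth limits Axin2, Rnf43 and Nkd1 most.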
